A study of Mus musculus with 2 samples.

Results

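Smooth muscle cells of contractile arterial type were described among dissociated hippocampal cells of mice, sequenced as 1 Mr1-/- and 1 Mr1+/+ single-cell library. A cell barcode was kept if it had UMIs (unique molecular identifiers, each marking 1 captured transcript) of at least 300 genes and at most 10% of its UMIs from the mitochondrial genome. A kept cell was a member if it had UMIs of at least 3 of the 6 contractile genes Acta2, Myh11, Tagln, Myl9, Tpm2 and Mylk, and of at least 2 of the 4 genes Cnn1, Pln, Ptgis and Nexn, called the arterial genes here. It could have UMIs of at most 1 of Cldn5, Pecam1, Mog, Aqp4 and C1qa, which mark endothelial cells, oligodendrocytes, astrocytes and microglia. Of 11605 kept cells, 603 met this rule, namely 276 of 5278 Mr1-/- cells and 327 of 6327 Mr1+/+ cells. These 15 genes chose the cells, so their levels are given as a description only.

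Vascular smooth muscle cells wrap arteries and arterioles in rings and set the width of the vessel by contracting. Calcium entering through voltage-gated channels or released from the sarcoplasmic reticulum activates myosin light chain kinase (Mylk), and phosphorylated myosin then pulls on actin filaments anchored in dense bodies. Phospholamban (Pln) restrains the calcium pump that refills the sarcoplasmic reticulum, and prostacyclin synthase (Ptgis) makes a lipid that relaxes the muscle. In the brain these cells give way along the vascular tree to pericytes, which sit on capillaries, share Rgs5, Notch3 and Pdgfrb with them and carry little of the contractile machinery.

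All mice were 7 months old and untreated, and the genotypes differ at Mr1, which encodes an MHC class I-related molecule that shows microbial vitamin B metabolites to MAIT cells, a class of innate-like T cells. The deleted stretch of Mr1, the strain and the number of mice behind each library were not given in the sources used here. Hippocampi were dissociated with a kit for primary neurons, live nucleated cells (DAPI-negative, Draq5-positive) were sorted, and a 10x Genomics kit that captures transcript 5' ends was used. There were 18349132 UMIs in 5347 barcodes for Mr1-/- and 23244575 UMIs in 6410 barcodes for Mr1+/+. With 1 library per genotype there was no replicate, so no test was made, and a difference between genotypes cannot be told apart from a difference between libraries, sorts or mice. All intervals are 95% intervals that cover counting error only.

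Mr1 itself was checked before the other genes. Mr1-/- members held 0 Mr1 UMIs and Mr1+/+ members 7 (exact Poisson interval 2.81 to 14.4), in 7 cells. A count of 0 allows up to 3 UMIs over the Mr1-/- members, or 2.75 per 1000000 UMIs. Counts of a gene on this scale are called CPM. The Mr1+/+ members had 4.97 CPM, 1.81-fold above that floor, before the counting error of their 7 UMIs. Their interval starts at 2.81 UMIs, below the allowed 3, so the member counts alone set no smallest fold. Over all kept cells the counts were 2 (Mr1-/-) and 138 (Mr1+/+).

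The promoters of some contractile genes carry the CArG box, the sequence bound by serum response factor, which with myocardin drives the contractile gene program. The stretches below are shown because the genes they precede are among the structural genes whose levels are described below. They come from the RefSeq promoter windows of GRCm38.p6 (250 bases before a transcript start), read 5' to 3' on the gene's strand, with the CArG box in capitals. The windows lie at chr2:156775263-156775352 on the plus strand (Myl9, regulatory myosin light chain), chr10:128493010-128493099 on the minus strand (Myl6, essential myosin light chain), chr16:57549140-57549229 on the plus strand (Filip1l, a filamin-interacting protein) and chr14:20929148-20929220 on the plus strand (Vcl, vinculin of adhesion plaques).
Myl9: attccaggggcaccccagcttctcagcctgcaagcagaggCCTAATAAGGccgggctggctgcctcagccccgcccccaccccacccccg
Myl6: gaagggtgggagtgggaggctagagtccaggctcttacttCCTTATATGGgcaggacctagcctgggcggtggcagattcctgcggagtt
Filip1l: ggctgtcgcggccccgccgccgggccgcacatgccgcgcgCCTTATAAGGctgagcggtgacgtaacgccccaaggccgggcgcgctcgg
Vcl: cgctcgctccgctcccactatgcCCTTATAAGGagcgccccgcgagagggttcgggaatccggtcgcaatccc
The box starts 161 bases before the transcript start of Myl9, 50 before that of Myl6, 62 before that of Filip1l and 227 before that of Vcl. Only the CArG box was searched for, on both strands (it reads the same way on each). It was found in these windows for 2 of 17 contractile genes with an entry (Myl6, Myl9), 4 of 18 dense body and adhesion genes (Fermt2, Filip1l, Ldb3, Vcl), 1 of 21 calcium and channel genes (Trpc6), 0 of 18 matrix genes and 0 of 11 pericyte markers. Of all 32851 RefSeq promoters, 482 (1.47%) held it, and by gene it was found for 439 of 27025 with an entry. A match is a description of the letters in this window and not a measured site.

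Nearly all members carried the full contractile set, and some carried pericyte genes as well. Median depth was 4010 UMIs and 1777.5 genes per cell in Mr1-/- members and 4246 UMIs and 1869 genes in Mr1+/+ members, and the median mitochondrial share was 5.36% and 4.85%. All 6 contractile genes were found in 265 of 276 Mr1-/- and 315 of 327 Mr1+/+ members, and 0 members sat at the threshold of 3 contractile genes. For carrying 2 or more of the 5 other-cell genes, 7 Mr1-/- and 11 Mr1+/+ cells were left out, and 15 and 27 members carried 1. The rule sets no limit on pericyte genes: 66 Mr1-/- and 56 Mr1+/+ members had UMIs of 3 or more of Kcnj8, Abcc9, Vtn, Higd1b, Atp13a5 and Ndufa4l2. The libraries shared 44 barcodes, none of which was a member in both. Members made up 5.23% of Mr1-/- kept cells (exact binomial interval 4.64 to 5.86) and 5.17% of Mr1+/+ kept cells (4.64 to 5.74), a difference of 0.0609 percentage points (Newcombe interval -0.747 to 0.880).

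Smooth muscle alpha-actin, Acta2, was the most abundant of the genes in the rule, at 24423 CPM in Mr1-/- members and 25763 CPM in Mr1+/+ members. After each cell was thinned to 1500 UMIs, Mr1-/- members held from 7 to 98 Acta2 UMIs (median 34) and Mr1+/+ members from 10 to 88 (median 36), so none of the 275 and 320 thinned members lacked it. The actin-binding protein transgelin (Tagln) was at 19150 and 20333 CPM, Myl9 at 9699 and 10690 CPM and smooth muscle myosin heavy chain (Myh11) at 3126 and 3240 CPM. Beta-tropomyosin (Tpm2) was at 2668 and 2726 CPM and Mylk at 1815 and 1868 CPM. The arterial genes were rarer. Pln was at 1151 CPM in Mr1-/- and 1003 CPM in Mr1+/+ members, the thin filament protein calponin (Cnn1) at 401 and 508 CPM, Ptgis at 347 and 465 CPM and the actin-binding nexilin (Nexn) at 339 and 364 CPM. All 5 marker genes given for the cell type, Cnn1, Acta2, Myh11, Ptgis and Pln, were thus present in both libraries, which the rule itself largely ensures.

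All 14 smooth muscle markers outside the rule were measured, with a summed 28736 CPM in Mr1-/- and 29870 CPM in Mr1+/+ members. Pericytes, defined by 3 or more of the 6 pericyte genes and at most 1 contractile gene (326 Mr1-/- and 306 Mr1+/+ cells), had a sum of 2049 and 1834 CPM. The 14 pericyte markers summed to 2738 and 2357 CPM in members against 44288 and 42564 CPM in pericytes, which 6 of these markers define. The other 8 summed to 1528 and 1280 CPM in members against 7629 and 7271 CPM in pericytes. The defining pericyte channel genes Kcnj8 and Abcc9 were close to absent from members. Kcnj8, a pore subunit of the ATP-sensitive potassium channel, had 2.75 and 7.11 CPM in members against 2067 and 2143 CPM in pericytes, and Abcc9, its regulatory subunit, 3.66 and 0.711 CPM against 581 and 695 CPM. Fibroblast markers summed to 275 and 453 CPM in members, with Dcn, Lum, Pdgfra, Slc6a13 and Col6a3 at 0 UMIs in both libraries, and 2 of the remaining markers, Ogn and Col1a2, reached 50 UMIs. Neuronal markers summed to 29.3 and 31.3 CPM.

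Beside other cells of the smooth muscle gate, Eln, Cbr2, Sorbs2 and Csrp1 were among the 12 genes named as highest in the members. The comparison cells met the contractile and other-cell parts of the rule with UMIs of 0 or 1 arterial genes (215 Mr1-/- and 243 Mr1+/+ cells), and they were shallower, with medians of 2693 and 2570 UMIs. Those with 0 arterial genes were little like muscle: 85 of 111 Mr1-/- and 112 of 145 Mr1+/+ such cells had 3 or more pericyte genes, with a median of 13 and 17 contractile UMIs per cell. Since the rule cut the 2 sets apart, what follows is a description. Of 3455 genes with at least 50 CPM in one of the sets in each library, 55 (1.59%) were at least 2-fold higher in members in both libraries and 182 (5.27%) at least 2-fold lower, with 10 CPM added to each value. At 4-fold the numbers were 3 (0.0868%) and 51 (1.48%).

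Elastin (Eln, mm10 chr5:134702593-134747323, minus strand), the core of the elastic lamina of arteries, was at 76.0 CPM in Mr1-/- members against 6.56 CPM in the comparison cells of that library, and at 102 against 11.2 CPM in the Mr1+/+ library, or 11.6-fold and 9.05-fold. These folds are of plain CPM, without the 10 CPM added. They rest on low comparison values, as a count of 0 in those cells allows up to 4.92 CPM (Mr1-/-) and 4.21 CPM (Mr1+/+). Sorbs2, an adapter that links actin to adhesion sites, was at 745 against 199 CPM and at 761 against 206 CPM (3.75-fold and 3.69-fold). The LIM protein gene Csrp1, associated with actin, was at 2987 against 924 CPM and 3620 against 1031 CPM. The matrix genes as a list did not share the direction of Eln: of 23 elastic fibre and matrix genes measured here, 8 were higher in members in the Mr1-/- and 11 in the Mr1+/+ library (medians -0.24 and -0.14, log2, against -0.13 and -0.15 over all genes). Others named by the same rule were Cbr2 (a carbonyl reductase, 52.2 and 73.2 CPM in Mr1-/- and Mr1+/+ members against 0 and 1 UMI in the comparison cells), Sh3bgr, Pi15, BC051019, Bdh1, Plin4, Gfra4, Gm37800 and the immediate early gene Fos (200 against 52.5 CPM in the Mr1-/- library and 170 against 36.5 CPM in the Mr1+/+ library). Eln, Cbr2, Sh3bgr, Pi15, BC051019, Plin4 and Gm37800 had 0 UMIs in pericytes of either library, where 0 allows up to 5.01 CPM (Mr1-/-) and 4.67 CPM (Mr1+/+).

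On the lower side were genes abundant in pericytes. Pleiotrophin (Ptn), a secreted growth factor, was at 84.2 CPM in Mr1-/- members against 1676 CPM in the comparison cells and 8549 CPM in pericytes, and at 73.2 against 2007 and 7750 CPM in the Mr1+/+ library. The carbonic anhydrase gene Car4 was at 43.9 against 1213 and 2122 CPM, and at 66.1 against 1201 and 1593 CPM. Art3, Slc6a20a (an imino acid transporter), Ifitm1 and Uchl1 (a ubiquitin hydrolase) were under 20 CPM in members and above 150 CPM in the comparison cells in both libraries. Nnat, at 7.32 and 10.7 CPM in members, and Ccl19, a chemokine gene with near-identical copies in the mouse genome and 1 and 15 member UMIs, were higher in the comparison cells than in pericytes. Thus Nnat was at 154 and 298 CPM in the comparison cells and at 26.7 and 65.3 CPM in pericytes.

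The distance from pericytes was wider. Of 3886 genes, 356 (9.16%) were at least 2-fold higher in members than in pericytes in both libraries and 616 (15.9%) at least 2-fold lower. At 4-fold these were 171 (4.4%) and 195 (5.02%). Among the 12 named genes, Pdlim3, a PDZ and LIM protein of actin anchoring sites, was at 704 CPM in Mr1-/- and 721 CPM in Mr1+/+ members, against 2 and 1 UMI in pericytes. Palladin (Palld), which bundles actin in dense bodies, was at 482 and 480 CPM against 1 and 0 UMIs, and Sncg (gamma-synuclein) at 1106 and 1049 CPM against 2 and 0 UMIs. The intermediate filament gene Vim was at 5976 and 5954 CPM against 174 and 240 CPM, and the LIM gene Crip1 at 13751 and 13920 CPM against 474 and 426 CPM. Csrp2, Mustn1, Map3k7cl, Fbxl22, Spint2 (a protease inhibitor) and Tinagl1 (a matrix protein) completed the group. Sncg and Map3k7cl differed less from the other smooth muscle gate cells, by 1.29-fold and 1.65-fold for Sncg and 1.26-fold and 1.49-fold for Map3k7cl in the Mr1-/- and Mr1+/+ libraries. Lower in members were Spp1 (osteopontin), Cthrc1, Hic1 and Nodal (a TGF-beta family ligand), each with at most 4 UMIs per library in members and at least 337 CPM in pericytes.

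**Figure D1:**
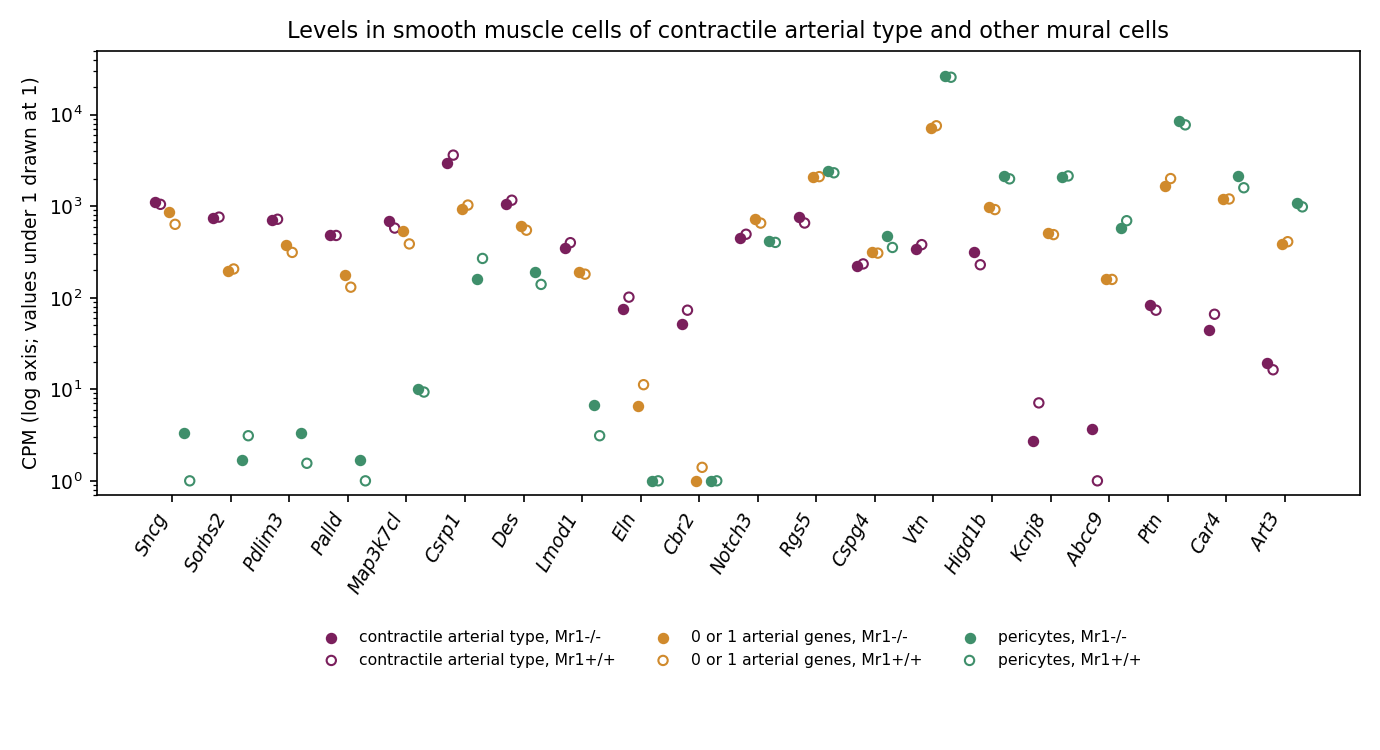
Summed level (CPM, log axis, values under 1 drawn at 1) of 20 genes in smooth muscle cells of contractile arterial type, in smooth muscle gate cells with 0 or 1 arterial genes and in pericytes, with filled points for Mr1-/- and open points for Mr1+/+. The genes from Sncg to Lmod1 are highest in the members, pericyte genes from Vtn to Art3 are highest in pericytes, and the 2 libraries lie close together for most genes (Sorbs2 at 745 and 761 CPM in members).

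The plot of levels by cell group also shows genes shared along the vessel, whose order varied. The G protein regulator Rgs5 was at 754 and 656 CPM in Mr1-/- and Mr1+/+ members, against 2078 and 2106 CPM in the comparison cells and 2429 and 2320 CPM in pericytes. Notch3, the Notch receptor of mural cells, was at 447 and 495 CPM in members, 732 and 654 CPM in the comparison cells and 417 and 403 CPM in pericytes. Cspg4 (the NG2 proteoglycan) was at 221 and 234 CPM in members, 318 and 308 CPM in the comparison cells and 471 and 355 CPM in pericytes.

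The members were not uniform, and some of their genes were ordered by how many of the 4 arterial genes a cell carried. Cells with UMIs of 2, 3 and 4 arterial genes numbered 118, 87 and 71 in the Mr1-/- library and 103, 103 and 121 in the Mr1+/+ library. Depth was higher with more of them: median UMIs were 3716.5, 4058 and 4180 in Mr1-/- members and 3943, 4148 and 4659 in Mr1+/+ members, and the part of depth in the order was not tested. The 6 contractile genes took a median of 5.08%, 6.24% and 7.17% of the UMIs of an Mr1-/- member, and 5.15%, 6.52% and 7.24% of those of an Mr1+/+ member. Cells just outside the rule, with 1 arterial gene, had 4.39% (104 Mr1-/- cells) and 4.45% (98 Mr1+/+ cells). Among cells with 2, 3 and 4 arterial genes, 44, 15 and 7 Mr1-/- cells and 37, 16 and 3 Mr1+/+ cells had 3 or more pericyte genes.

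Of 2647 genes, 21 (0.793%) were at least 2-fold higher in members with 4 than in members with 2 arterial genes in both libraries, and 35 (1.32%) at least 2-fold lower. At 4-fold these were 2 (0.0756%), Igfbp4 and Cbr2, and 12 (0.453%). The genes named from here on in this comparison were chosen after their values were seen. Among the genes higher with 4, Eln was at 44.5, 78.8 and 120 CPM in Mr1-/- cells with 2, 3 and 4 arterial genes, and at 33.4, 79.2 and 168 CPM in Mr1+/+ cells. Igfbp4, a binding protein of insulin-like growth factors, was at 165, 376 and 862 CPM and at 205, 538 and 1221 CPM, a 5.24-fold (interval 4.03 to 6.88) and 5.95-fold (4.75 to 7.53) difference between 4 and 2. Ogn (osteoglycin, a small proteoglycan of the matrix) was at 80.1, 134 and 393 CPM and at 146, 206 and 567 CPM. Smoothelin (Smtn), a marker of contractile muscle, was at 145, 236 and 333 CPM and at 150, 240 and 413 CPM, and Tgfb3, a TGF-beta ligand, at 153, 181 and 343 CPM and at 141, 336 and 392 CPM. The basement membrane proteoglycan Hspg2, the actin regulator Enah, the complement inhibitor Cd59a and tetherin (Bst2) were also among the genes higher with 4. Other matrix genes were not: Mgp (matrix Gla protein) was 0.549 and 0.633 times as high with 4 as with 2 in the Mr1-/- and Mr1+/+ libraries, the collagen IV gene Col4a1 1.33 and 1.12 times and Mfge8 (lactadherin) 1.17 and 1.10 times. Acta2 and Myh11 differed less, by 1.48-fold and 1.47-fold in Mr1-/- and by 1.5-fold and 1.54-fold in Mr1+/+ members.

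Among the genes lower with 4, Rgs5 was at 1259, 572 and 206 CPM in Mr1-/- cells with 2, 3 and 4 arterial genes and at 1520, 526 and 117 CPM in Mr1+/+ cells. Vitronectin (Vtn) was at 570, 271 and 83.2 CPM and at 926, 257 and 71.7 CPM. The calcium-activated chloride channel Ano1 was at 198, 108 and 30.0 CPM and at 198, 81.6 and 31.5 CPM, and the atypical chemokine receptor Ackr3 at 145, 87.5 and 13.3 CPM and at 177, 69.6 and 26.2 CPM. Olfr558, a member of the olfactory receptor family, was at 189, 120 and 39.96 CPM and at 153, 79.2 and 36.7 CPM. Bcas3 and the septin gene Sept4 ran the same way. Notch3 was at 532, 446 and 320 CPM and at 673, 514 and 350 CPM. The endothelin receptor Ednra (156, 96.3 and 110 CPM in Mr1-/-, 177, 72.0 and 124 CPM in Mr1+/+), the channel subunit Kcnmb1 (323, 309 and 310 CPM, then 298, 339 and 289 CPM) and Cspg4 (218, 254 and 186 CPM, then 251, 216 and 236 CPM) showed no such order across all 3 steps in both libraries.

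Myelin genes of oligodendrocytes were also lower with 4: Mal, a myelin proteolipid gene, was at 300.3, 49.6 and 6.66 CPM in Mr1-/- members with 2, 3 and 4 arterial genes and at 630.0, 173 and 96.2 CPM in Mr1+/+ members. Among members with none of the 5 other-cell genes the log2 difference of Mal between 4 and 2 was 0.45 and -0.17, while that of Igfbp4 was 2.25 and 2.45, that of Eln 1.16 and 1.93 and that of Rgs5 -2.47 and -3.60. Over all members these differences were -4.22 and -2.59 for Mal, 2.32 and 2.52 for Igfbp4, 1.25 and 2.03 for Eln and -2.55 and -3.59 for Rgs5. Without those cells the vessel genes thus kept their differences and Mal did not.

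**Figure D2:**
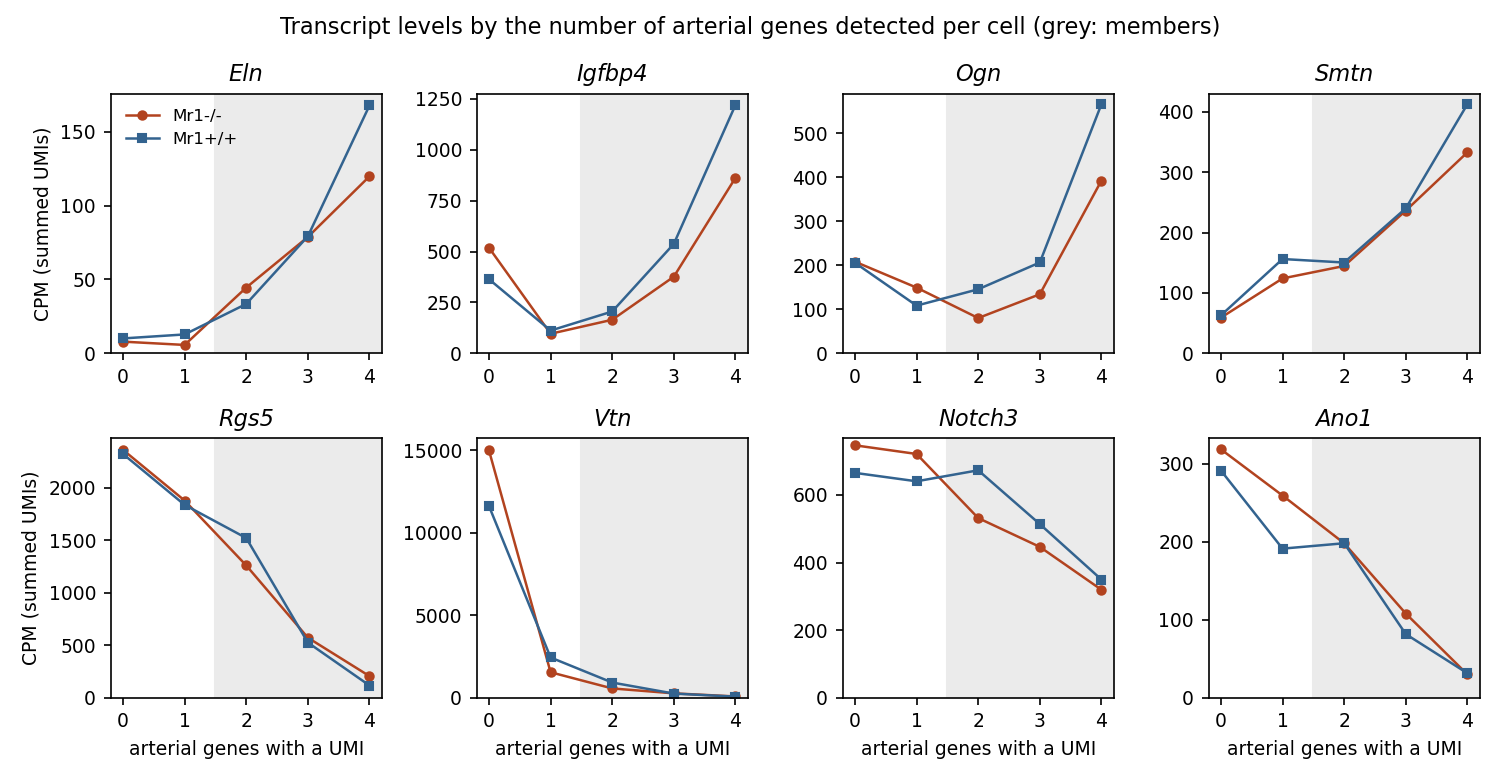
Summed level (CPM) of 8 genes in smooth muscle gate cells with UMIs of 0 to 4 arterial genes, with Mr1-/- as circles and Mr1+/+ as squares and the members shaded. Eln, Igfbp4, Ogn and Smtn are highest with 4 arterial genes, whereas Rgs5, Vtn, Notch3 and Ano1 are lowest there in both libraries.

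The plot by number of arterial genes also shows that Igfbp4 and Ogn were not lowest in cells with 0 arterial genes. Igfbp4 was at 519 and 364 CPM there, against 95.8 and 112 CPM with 1, and Ogn at 208 and 206 CPM, against 149 and 108 CPM, in the Mr1-/- and Mr1+/+ libraries. The highest level of Igfbp4 among the other cell groups was 3208 CPM, in the cells with fibroblast markers (9 per library).

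Fewer of the Mr1-/- members carried all 4 arterial genes, which is a description only because these genes chose the cells. The share of members with all 4 was 25.7% in the Mr1-/- library (71 of 276, interval 20.7 to 31.3) and 37.0% in the Mr1+/+ library (121 of 327, 31.8 to 42.5), a difference of -11.3 points (-18.5 to -3.83). After thinning to 1500 UMIs, which left out 1 Mr1-/- and 7 Mr1+/+ members, 11 of 275 Mr1-/- and 27 of 320 Mr1+/+ members (8.44%) carried all 4, a difference of -4.44 points (-8.41 to -0.470). These shares follow from the levels of the genes in the rule, of which Cnn1 (ratio of CPM, Mr1-/- over Mr1+/+, 0.789, interval 0.699 to 0.890) and Ptgis (0.745, 0.655 to 0.847) were lower in the Mr1-/- library, Pln was higher (1.15, 1.06 to 1.24) and Nexn was at 0.931 (0.812 to 1.07). Because some genes follow the order described above, this mix can enter the genotype ratios below. Each ratio was therefore also taken with the same weights for cells with 2, 3 and 4 arterial genes in both libraries, an alternative added after the data were seen. The classes are counts of genes of the rule, so this weighting cannot tell a different mix of cells from different levels within cells.

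Between genotypes the members were alike for most genes. With UMIs summed over the members of a library and 10 CPM added, 12 of 3014 genes (0.398%) were at least 1.5-fold higher and 21 (0.697%) at least 1.5-fold lower in Mr1-/- members, or 33 (1.09%) either way. The log2 ratio over all tested genes had quartiles of -0.13 and 0.11. Of these 33 genes, 7 higher and 7 lower ones passed the filter used for naming. It asks for at least 0.2 times the CPM of the highest other cell group, so a gene that passed can be more abundant there. It also leaves out mitochondrial, ribosomal protein, haemoglobin and sex-linked genes. The remaining higher genes included mt-Atp8 and the microglial genes C1qa, C1qb and C1qc. The remaining lower ones included the oligodendrocyte genes Mal, Cnp, Cldn11, Pllp and Tubb4a, the astrocyte transporter Slc1a2, mt-Atp6, Igfbp4, Klf2 and Tsc22d3. mt-Atp8 and mt-Atp6 overlap in the mitochondrial genome, so their split is uncertain.

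The genes on the lower side after that filter were led by Mrps6, a protein of the mitochondrial ribosome. It had 196 UMIs (179 CPM) in Mr1-/- members and 512 UMIs (364 CPM) in Mr1+/+ members, a ratio of 0.493 (0.416 to 0.582). The ratio was below 1 in each class of members, at 0.458, 0.516 and 0.601 in cells with 2, 3 and 4 arterial genes. It was not limited to members: Mrps6 was at 103 and 185 CPM in the smooth muscle gate cells with 0 or 1 arterial genes and at 41.7 and 103 CPM in pericytes. Mrps6 lies at chr16:92058270-92112227 (mm10, plus strand) and its exons overlap those of Slc5a3 on the same strand, so reads of the 2 genes may be split between them.

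Hspb6 (chr7:30552178-30555443, plus strand), a small heat shock protein of muscle also called Hsp20, had 35 UMIs (32.0 CPM) in Mr1-/- members and 96 UMIs (68.2 CPM) in Mr1+/+ members, a ratio of 0.470 (0.309 to 0.698). In the smooth muscle gate cells with 0 or 1 arterial genes it was at 16.4 and 15.4 CPM. Ogn (chr13:49608046-49624501, plus strand) was at 183 CPM in Mr1-/- and 335 CPM in Mr1+/+ members (200 and 471 UMIs, ratio 0.547, 0.461 to 0.647), and was at 174 and 163 CPM in the cells with 0 or 1 arterial genes. Ogn was higher with more arterial genes. Its log2 ratio was -0.84 as counted and -0.58 with the same weights, and the ratio was 0.55, 0.650 and 0.693 in cells with 2, 3 and 4. Igfbp4 (chr11:99041244-99054392, plus strand) was at 423 and 716 CPM (ratio 0.590, 0.528 to 0.660), with log2 ratios of -0.75 as counted and -0.47 with the same weights.

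The small modifier Sumo3 was at 54.9 CPM in Mr1-/- and 104 CPM in Mr1+/+ members (ratio 0.529, 0.385 to 0.720), the RNA demethylase Alkbh5 at 52.2 and 87.4 CPM, the RNA-binding protein Ilf2 at 39.4 and 64.7 CPM and Tob2 at 45.8 and 73.9 CPM. Of these, the log2 ratio of Alkbh5 was -0.65 as counted and -0.02 with at most 5% mitochondrial UMIs, and that of Ilf2 was -0.60 as counted and -0.08 when cells were thinned before the rule. The mitochondrial inner membrane protein Higd1a, which also was higher with 4 arterial genes, was at 211 and 318 CPM, with log2 ratios of -0.57 as counted and -0.39 with the same weights. Ehd3, the actin-binding supervillin gene Svil, Ndrg1 and the PDZ and LIM gene Pdlim1 completed the 12 lowest, with ratios from 0.625 (Ehd3) to 0.663 (Pdlim1).

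On the higher side, Hspa1a (chr17:34969190-34972156, minus strand), the stress-inducible Hsp70, was at 216 CPM in Mr1-/- members (236 UMIs) and 134 CPM in Mr1+/+ members (188 UMIs), a ratio of 1.62 (1.33 to 1.97). It was higher in each class of members, with ratios of 1.67, 1.59 and 1.82 in cells with 2, 3 and 4 arterial genes, and was found in 97 of 276 and 100 of 327 members (35.1% and 30.6%). In oligodendrocytes, whose depth was similar (medians of 4178.5 and 4312 UMIs), 3.55% and 6.52% of cells had a UMI of it.

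Nrarp (chr2:25180758-25183339, plus strand), a target and feedback inhibitor of Notch signalling, was at 163 CPM in Mr1-/- and 104 CPM in Mr1+/+ members (ratio 1.57, 1.25 to 1.97). Its level was lower with more arterial genes, and its log2 ratio was 0.60 as counted and 0.38 with the same weights, with ratios of 1.07, 1.51 and 2.92 in cells with 2, 3 and 4. Cox4i2, an alternative subunit of cytochrome c oxidase, was at 472 and 325 CPM (log2 ratio 0.53 as counted, 0.32 with the same weights), and Olfr558 at 126 and 83.8 CPM (0.54 and 0.34). Both were lower with more arterial genes, and their ratios were smaller with the same weights. Angpt1, a ligand of the endothelial receptor Tie2, was at 93.4 and 59.0 CPM (ratio 1.58, 1.17 to 2.14) and kept a log2 ratio of 0.53 with the same weights, against 0.58 as counted. In the Mr1-/- and Mr1+/+ libraries Angpt1 was at 57.4 and 67.4 CPM in the cells with 0 or 1 arterial genes. Sh3glb2 (129 and 81.0 CPM), Ddx1 (an RNA helicase, 115 and 76.7 CPM), Ube2v1 (171 and 115 CPM, sharing exons with a readthrough gene), Tpd52, the receptor phosphatase Ptprk and the mRNA export factor Thoc2 were also among the 12 highest, with ratios from 1.49 (Ube2v1) to 1.64 (Tpd52 and Ptprk). The log2 ratio of Thoc2 was 0.59 as counted and 0.02 when cells were thinned after the rule. Over 17 alternatives all 24 named genes kept their direction, and of the 14 past 1.5-fold only Mrps6 stayed past it in each.

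**Figure D3:**
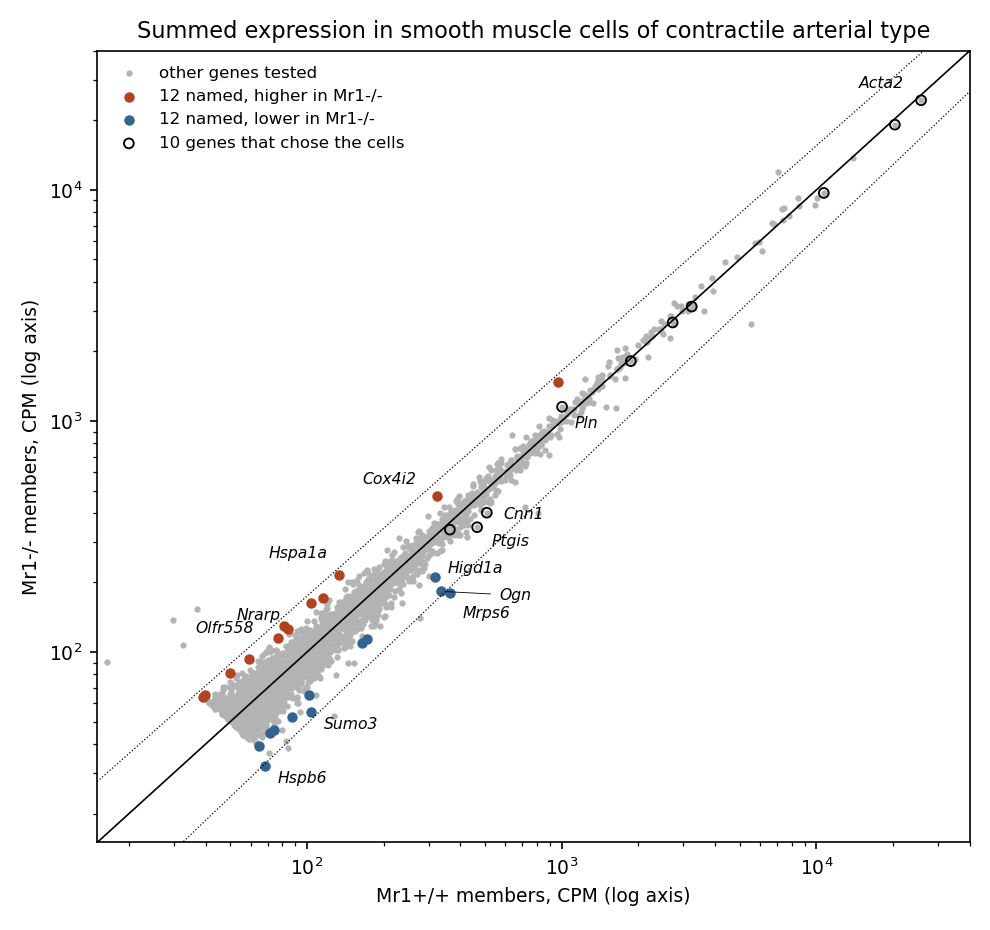
Summed level of each of 3014 genes in Mr1-/- members (vertical, CPM, log axis) and Mr1+/+ members (horizontal, CPM, log axis), with the solid line at equality and dotted lines at 1.5-fold with 10 CPM added. Most genes lie between the dotted lines, the 10 contractile and arterial genes of the rule lie between the dotted lines, and Mrps6 (179 and 364 CPM) and Hspa1a (216 and 134 CPM) are among the named genes away from it.

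Contractile and anchoring genes lay slightly to the lower side in Mr1-/- members. Of 22 contractile filament and regulator genes, all measured (50 or more UMIs over both libraries), 2 were higher and 20 lower, with a median log2 ratio of -0.10. Without the 7 genes of the rule on this list, 2 were higher and 13 lower (median -0.13). Over all 5893 genes with as many UMIs, 2881 were higher and 3012 lower, with a median of -0.01. Acta2 had a ratio of 0.948, Tagln 0.942, Myl9 0.907 (0.885 to 0.930) and Myl6 0.922, and Tpm1 was near equality at 0.987 (0.959 to 1.02). Cnn1 had the lowest log2 ratio (-0.33) and Ppp1r12b, a myosin phosphatase subunit, the highest (0.08). Rock1, a kinase that inhibits that phosphatase, was at 322 and 392 CPM. Of 21 measured dense body and adhesion genes, 4 were higher and 17 lower (median -0.09), among them filamin (Flna, 1892 and 2175 CPM, ratio 0.870), talin (Tln1, 303 and 363 CPM) and vinculin (Vcl, 246 and 281 CPM). Without the 1 gene of the rule on this list, 4 of 20 were higher and 16 lower (median -0.08). Filip1l was at 692 and 668 CPM (ratio 1.04, 0.940 to 1.14). Itgb1, the beta 1 integrin, was at 996 and 1040 CPM. With the same weights for the classes of members the medians of the full contractile and dense body lists were -0.04 and -0.01. Cnn1, which is on the contractile list, also helps to set these classes. Over all alternatives the contractile median was between -0.22 and -0.04.

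Genes of calcium handling and ion channels were on the other side, with 22 of 24 measured genes higher in Mr1-/- members and a median log2 ratio of 0.16. Over the alternatives run, the median was between 0.04 and 0.20. Without Pln, a gene of the rule, 21 of 23 were higher (median 0.15). The caveolar coat genes Cavin3 (1126 and 1069 CPM) and Cavin1 (761 and 684 CPM) were higher, and caveolin itself (Cav1) was lower, at 321 and 379 CPM (ratio 0.848, 0.739 to 0.972). The calcium pump Atp2a2, which Pln inhibits, was at 448 and 426 CPM (ratio 1.05, 0.930 to 1.18). The T-type calcium channel Cacna1h was at 57.7 and 37.0 CPM (1.56, 1.06 to 2.30), the auxiliary subunit Cacna2d1 at 91.5 and 65.4 CPM (1.40, 1.04 to 1.88) and the L-type channel Cacna1c at 70.5 and 54.7 CPM (1.29, 0.927 to 1.79). The store-operated partners Stim1 (124 and 103 CPM) and Orai1 (36.6 and 29.8 CPM) and the calcium buffer Casq2 (47.6 and 39.1 CPM) had intervals of their ratios that held 1.

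Of 30 vasoactive receptor genes, 10 reached 50 UMIs, with 8 higher and 2 lower in Mr1-/- members (median 0.05). The most abundant were Ramp1 (a co-receptor of calcitonin gene-related peptide, 452 and 412 CPM), the neuropeptide Y receptor Npy1r (208 and 174 CPM), the sphingosine 1-phosphate receptor S1pr3 (184 and 197 CPM), the membrane estrogen receptor Gper1 (144 and 141 CPM) and Ednra (124 CPM in both). Agtr1a, Adra1a, Avpr1a, Htr2a, Ptgfr and Npr3 had no UMIs in any member, which leaves room for up to 2.75 CPM in Mr1-/- and 2.13 CPM in Mr1+/+ members. The ATP-gated channel P2rx1 had the lowest log2 ratio (-0.84), at 20.1 and 44.1 CPM, and the only one past 1.5-fold on the lower side, where 1.51% of all 5893 genes lay. Calcrl, the partner of Ramp1, had the highest (0.53), at 31.1 and 18.5 CPM.

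Of 14 measured genes of cyclic nucleotide and prostanoid signalling, 5 were higher and 9 lower (median -0.04). Without Ptgis, a gene of the rule, 5 of 13 were higher and 8 lower (median -0.02). The subunits of soluble guanylate cyclase, Gucy1a1 (437 and 392 CPM) and Gucy1b1 (303 and 269 CPM), and the cyclic GMP phosphodiesterase Pde5a (424 and 360 CPM, ratio 1.18, 1.03 to 1.34) were higher. Ptgis was lowest, and the cyclic GMP kinase Prkg1 was at 54.0 and 73.9 CPM (0.731, 0.522 to 1.02). Rgs4, another G protein regulator, was at 697 and 730 CPM.

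Transcription factors of smooth muscle showed no common direction, with 9 of 20 measured genes higher and 11 lower (median -0.05). Serum response factor (Srf) was at 47.6 and 49.0 CPM, its cofactor myocardin (Myocd) at 49.4 and 54.7 CPM, Mef2c at 524 and 448 CPM and Ebf1 at 565 and 506 CPM. In the Notch pathway 8 of 11 genes were higher and 3 lower (median 0.16, between -0.02 and 0.28 over the alternatives). The receptor Notch3 was at 447 and 495 CPM (ratio 0.903, 0.803 to 1.02) and its target Heyl at 142 and 200 CPM (0.708, 0.578 to 0.864), while Nrarp, Notch1 (72.3 and 51.2 CPM) and Hes1 (90.6 and 68.2 CPM) were on the higher side. Targets of the same pathway thus lay on both sides. In the TGF-beta and BMP pathway 8 of 15 genes were higher (median 0.02). Tgfb3 was at 214 and 301 CPM (0.713, 0.605 to 0.838; log2 ratio -0.47 as counted and -0.33 with the same weights), and Id3, a target of BMP signalling, at 977 and 963 CPM.

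Of 21 measured elastic fibre and matrix genes, 7 were higher and 14 lower (median -0.07). Sparcl1 was at 5918 and 5763 CPM, Mfge8 (lactadherin) at 850 and 980 CPM (ratio 0.868, 0.798 to 0.944), biglycan (Bgn) at 557 and 556 CPM and matrix Gla protein (Mgp), an inhibitor of calcification, at 549 and 479 CPM (1.15, 1.03 to 1.28). Mgp was uneven among cells, with 5 Mr1-/- cells holding 249 of 600 UMIs and 5 Mr1+/+ cells 99 of 674. Eln was at 76.0 and 102 CPM (0.748, 0.563 to 0.987), and its log2 ratio was -0.38 as counted and -0.17 with the same weights. The collagen IV gene Col4a1 was at 202 and 252 CPM (0.804, 0.677 to 0.954). The collagen cross-linking enzyme Loxl2 had the highest log2 ratio (0.91), on 46 and 25 UMIs, past 1.5-fold as were 0.933% of all 5893 genes on the higher side. Of 18 genes of the synthetic state, the proliferative form of smooth muscle, only 5 reached 50 UMIs, and 4 of these were rare. The exception was Vim, at 5976 and 5954 CPM.

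Heat shock chaperones were mostly lower in Mr1-/- members, with 16 of 18 measured genes lower and 2 higher (median -0.30, between -0.39 and -0.19 over the alternatives). The most abundant, the small heat shock protein Hspb1, was at 1540 CPM in Mr1-/- and 1780 CPM in Mr1+/+ members (ratio 0.865, 0.813 to 0.921). Hsp90ab1 was at 1198 and 1332 CPM, crystallin alpha B (Cryab) at 1094 and 1189 CPM and Hspa8 at 988 and 1090 CPM. Hsp90aa1 was at 196 and 275 CPM (0.712, 0.6 to 0.844) and its partner Dnaja1 at 157 and 215 CPM (0.734, 0.605 to 0.888). Hspb6 had the lowest ratio, and Hspa1a, described above, had the highest. The summed level of the list was 6199 and 6980 CPM in members, 6182 and 8214 CPM in the smooth muscle gate cells with 0 or 1 arterial genes and 6255 and 7716 CPM in pericytes, so the direction was the same in the 3 cell groups of the Mr1-/- and Mr1+/+ libraries.

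Glucocorticoid-induced genes were also lower, with 8 of 12 measured genes lower and 4 higher (median -0.31, between -0.43 and -0.03 over the alternatives). Tsc22d3, a leucine zipper protein induced by glucocorticoids, was at 53.1 and 128 CPM (ratio 0.415, 0.303 to 0.561), and was also lower in Mr1-/- cells of the other groups, at 172 and 348 CPM with 0 or 1 arterial genes and at 200 and 347 CPM in pericytes. The kinase Sgk1 had the lowest log2 ratio (-2.04), at 11.9 and 80.3 CPM, but 5 Mr1+/+ cells held 80 of its 113 UMIs, and it is abundant in oligodendrocytes, 87.7% and 96.3% of which had a UMI of it. Among immediate early genes 6 of 18 were higher and 12 lower (median -0.13). Jun was at 198 and 151 CPM (1.31, 1.08 to 1.59), against Dusp1 at 163 and 237 CPM (0.689, 0.571 to 0.828), Klf2 at 79.6 and 130 CPM and Egr1 at 20.1 and 50.4 CPM (0.399, 0.236 to 0.652), of which 5 Mr1+/+ cells held 42 of 71 UMIs.

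Immune, metabolic and clock lists had medians between -0.16 and 0.10. MHC class I and peptide processing genes, which include relatives of Mr1, had 7 of 10 higher (median 0.10), with H2-K1 at 65.9 and 65.4 CPM and B2m at 77.8 and 67.5 CPM. Interferon response genes had 2 of 7 higher and 5 lower (median -0.16), with Ifitm3 at 299 and 315 CPM and Bst2 at 154 and 192 CPM. The cytokine genes Il6, Ccl2, Cxcl1, Cxcl10, Il1b and Tnf had 0 UMIs in the members of both libraries. Glycolysis genes had 8 of 15 higher (median 0.00), with Gapdh at 2020 and 1645 CPM (1.23, 1.16 to 1.30). Clock genes had 3 of 9 higher and 6 lower (median -0.10). Of 9 angiogenic and PDGF genes 6 were higher, among them Pdgfrb at 232 and 191 CPM, and of 5 iron and metallothionein genes 1 was. Ribosomal protein genes took 11.1% of Mr1-/- and 10.4% of Mr1+/+ member UMIs, with 68 of 81 higher by a median log2 ratio of 0.07, and 12 of 13 mitochondrially encoded genes were higher (median 0.16).

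**Figure D4:**
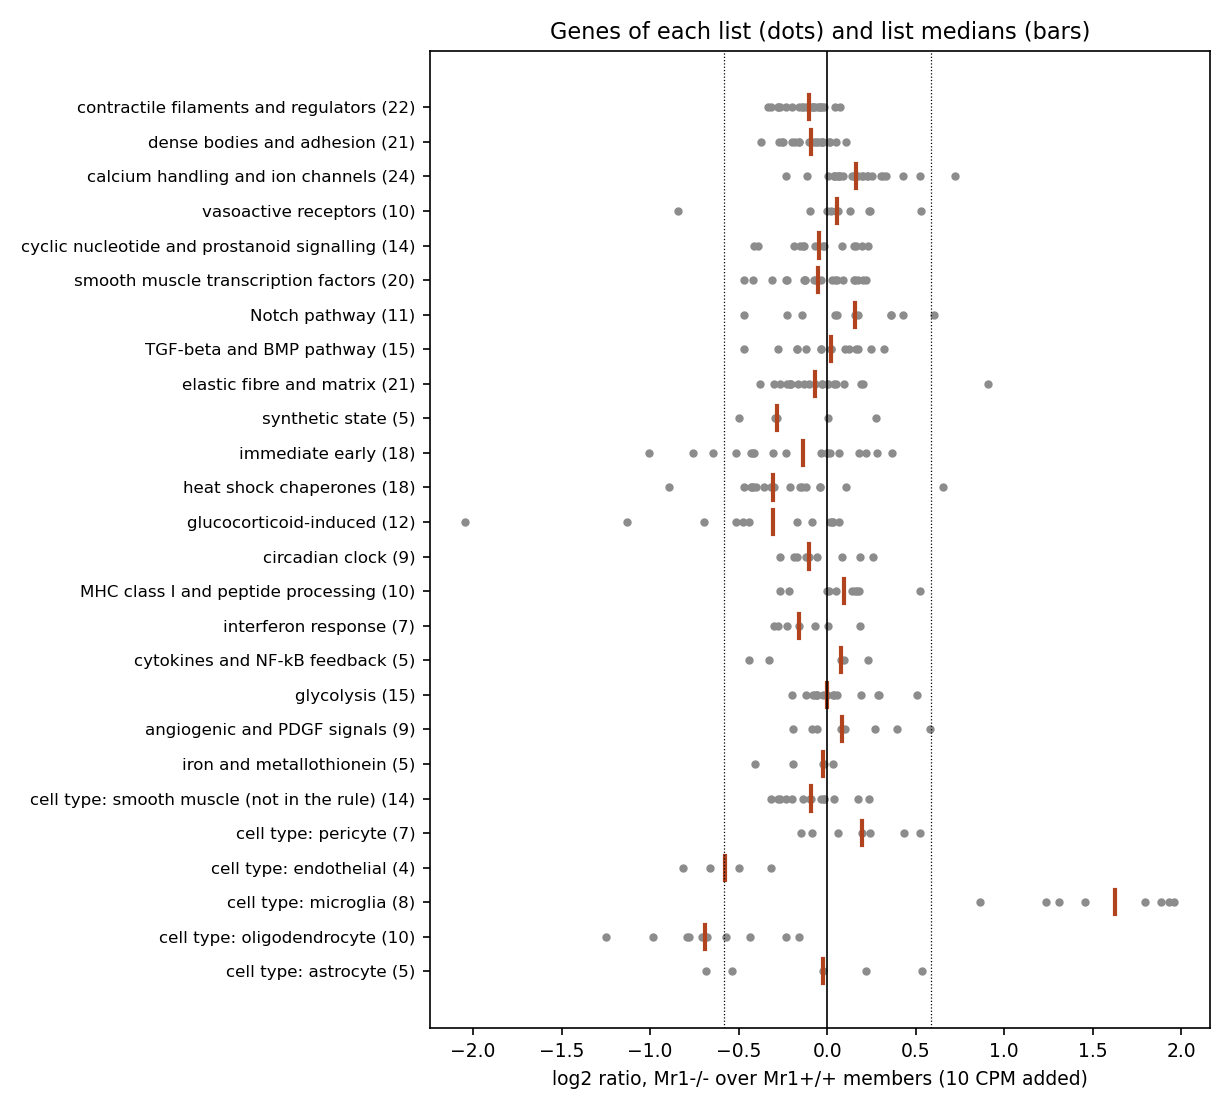
Log2 ratio of Mr1-/- over Mr1+/+ members (10 CPM added) for each measured gene of each list (dots) and the list median (bars), with the number of measured genes in parentheses and dotted lines at 1.5-fold. Calcium and channel genes lie mostly right of 0 (median 0.16) and chaperones left of it (median -0.30), while the microglia and oligodendrocyte markers lie farthest out (medians 1.63 and -0.69).

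The plot of list ratios shows that the widest medians belong to transcripts of other cell types. Microglial markers summed to 740 CPM in Mr1-/- members and 183 CPM in Mr1+/+ members, with 8 of 8 measured genes higher (median log2 ratio 1.63, and 1.46 without C1qa, a gene of the rule). They came from few cells: the 10 members with the most held 766 of 808 UMIs in the Mr1-/- library and 203 of 257 in the Mr1+/+ library. Among members with none of the 5 other-cell genes their median was -0.056. Oligodendrocyte markers summed to 1388 and 2095 CPM, with 10 of 10 lower (median -0.69, and -0.68 without Mog, a gene of the rule), and the 10 highest members held 1445 of 1516 and 2847 of 2948 UMIs. Endothelial markers summed to 790 and 1075 CPM, with 4 of 4 measured genes lower (median -0.58, between -1.83 and -0.0047 over the alternatives). Astrocyte markers summed to 1068 and 1008 CPM, with 2 of 5 higher. Pericyte markers had 5 of 7 higher (median 0.20, and -0.04 with the same weights), with Higd1b at 313 and 230 CPM (1.36, 1.17 to 1.59) and Ndufa4l2 at 532 and 448 CPM. Smooth muscle markers outside the rule had 3 of 14 higher and 11 lower (median -0.09, and 0.00 with the same weights). Scrublet, a doublet caller, marked 12 Mr1-/- and 18 Mr1+/+ members, which were kept, and the part of doublets and free RNA in these ratios was not tested beyond the alternatives given in the closing section.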

How the data were processed

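The deposited values are raw UMI counts per gene and barcode, made by the authors with Cell Ranger and STAR on mm10, per the submitters' processing notes, which name version 5.1.0, while the matrix header, per the file headers, names software version 3.1.0. Neither the annotation release nor the rule for calling cells was given in the sources read. From these counts, UMIs were summed over cells of a library and scaled to CPM, with Python 3.11.15, NumPy 2.4.6, SciPy 1.17.1, pandas 2.3.3 and scanpy 1.11.5. Figures were drawn with matplotlib 3.10.9.

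Members and gene lists were chosen with earlier results of these data known. No doublets were removed beyond the marker limits. Genes with at least 50 UMIs over both libraries and a mean of 50 CPM were compared after adding 10 CPM. Ratios in the text are of plain CPM with exact conditional binomial intervals, and log2 ratios include the 10 CPM. Named between genotypes were the 12 highest and 12 lowest genes with at least 0.2 times the CPM of the highest other cell group, leaving out mitochondrial, ribosomal protein, haemoglobin and sex-linked genes. Named between cell groups were the 12 highest and 8 lowest by the smaller ratio of both libraries. In lists, up to 5 abundant genes, the extremes and cell type markers could be named, and others named were chosen after their values were seen. Tests on simulated counts checked the ratios and calls. Alternatives changed barcode filters, member rules, depth, scaling, weighting and thresholds. Gene positions are from GENCODE M21 on mm10 (30934 of 31053 genes matched by ID). Some genes that met these rules are not reported here.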

Additional observations from a re-analysis of the deposited data

How the results depend on the processing

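Without replicates, every value rests on 1 library per genotype, and leaving out a library leaves no comparison. No paired analysis was possible because each genotype has 1 library. The share difference of members was -1.06 points with at most 5% mitochondrial UMIs (2.04% of Mr1-/- and 3.1% of Mr1+/+ cells, 95 and 176 members) and moved by less than its interval under the other alternatives. Of 3014 genes tested, 12 were higher and 21 lower in Mr1-/- members. The number tested differed between alternatives, so it is given with each count. With at most 5% mitochondrial UMIs, 87 genes were higher and 80 lower of 3072. With 3 or more arterial genes these were 31 and 38 of 2989, and with none of the other-cell genes 7 and 15 of 2976. Thinning to 1500 UMIs gave 66 and 81 of 2720 after the member rule, and 50 and 63 of 1904 before it. Totals lacking mitochondrial and ribosomal genes gave 19 and 27 of 3485. Over the same 3014 genes, adding 1 CPM gave 17 and 34, and adding 50 CPM gave 5 and 8. A minimum of 20 UMIs with no CPM minimum gave 120 and 192 of 8683. Of 3 alternatives chosen after seeing the data, leaving out members with 3 or more pericyte genes gave 19 higher and 22 lower of 2999 genes. The oligodendrocyte median reversed to 0.065 with at most 5% mitochondrial UMIs and to 0.62 when thinned before the rule, and the microglial median to -0.056 with none of the other-cell genes and -0.020 with at most 1 gene of each other cell type's gate (chosen after seeing the data). The cause was not tested. Of 1003 values for named genes 963 stayed within counting error and 40 moved. Of 442 list medians 360 stayed within 0.1, 78 moved and 4 were counted as reversed. Other medians changed sign without being counted as reversed. That of the synthetic state went from -0.29 to 0.02 with none of the other-cell genes. The astrocyte median went from -0.02 to 0.30 with 3 or more arterial genes.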
